A study of Mus musculus with 24 samples.

Results

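Cell cycle and proliferation genes were followed as 43 listed gene symbols in the liver messenger RNA of male mice, out of 22429 genes in the table. All 43 were found. They were ordered by role into 9 replication genes (Mcm2 to Mcm7, Cdc6, Cdt1 and Pcna), 4 genes of the GINS complex and nucleotide supply (Gins2, Tyms, Rrm1, Rrm2), 4 genes of G1/S control (E2f1, Ccnd1, Ccne1, Ccne2), 24 mitotic genes and 2 others (Stmn1, Hmgb2). The list uses no measured value, but it was drawn up with earlier results of these data known. Liver came from F1 hybrids of C57BL6J and FVBN, in 6 groups of 4 libraries. Ercc1Δ/− mutants, which age prematurely because 1 copy of Ercc1, a DNA repair gene, is truncated and the other is absent in every tissue, were restricted to 16 weeks, fed freely to 16 weeks, or fed freely to 7 weeks. Wild-type mice were restricted to 16 weeks, fed freely to 104 weeks, or fed freely to 16 weeks. Restriction began at 7 weeks of age with 10% and was stepped up weekly in steps of 10% until it reached 30% at 9 weeks, or 1.6 g of food a day for mutants, against 2.3 g when fed freely, and 2.1 g for wild-type mice, against 3.0 g. All mice were housed singly on the same synthetic pellets. Food came just before the dark phase, and none was given on the day of sacrifice. No wild type of 7 weeks is among the groups, so that growth with age and the mutation cannot be told apart in the mutant age comparison. Samples of a group carry numbers, but nothing says that each came from its own animal. A p-value therefore sets a difference between groups only against the spread of these samples, estimated over all 6 groups together.

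As background, a cell preparing to divide first licenses its replication origins. Cdc6 and Cdt1 load the ring of Mcm2 to Mcm7 proteins onto DNA, the GINS complex (of which Gins2 is a subunit) and Cdc45 complete the helicase, and the clamp protein Pcna holds the polymerases in place. Cyclin D1 (Ccnd1) and the E cyclins (Ccne1, Ccne2) act earlier, by releasing E2F factors such as E2f1 from RB proteins, and E2F in turn drives the replication genes. Genes that act later in the cycle, in mitosis, are controlled by the DREAM and FOXM1 complexes. These genes include Cdk1 and its B cyclins, the Aurora and Plk1 kinases, the spindle checkpoint (Bub1, Bub1b, Mad2l1), and Cdc20 and Ube2c, which work with the anaphase-promoting complex. Adult hepatocytes are mostly quiescent and many are polyploid, so these transcripts are scarce in healthy liver. RNA of bulk liver cannot tell fewer cells of a type apart from less RNA per cell.

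Promoters are shown because replication and mitotic members are known to be controlled by different factors, through E2F motifs and through the cell cycle homology region (CHR) with its CCAAT boxes. RefSeq promoters (GRCm38.p6, 250 bases before to 50 after the gene start) were matched for 33 of the 43 members, 8 of them replication and 19 mitotic genes. An E2F motif was searched as TTCCCGC, with a variant TTCGCGC. The variant TTGCCGC and, in the same way, the variant TTGGCGC were searched too. The CHR motif was searched as TTTGAA, with a variant written TTCGAA, and the box was searched for by its name. Both strands were searched, and matches may overlap. An E2F motif stood in 6 of 8 replication members and 3 of 19 mitotic members, against 9.57% of all 32851 promoters and 15.8% of 12763 promoters of genes tested here. A CHR motif stood in 2 of 8 replication members and 15 of 19 mitotic members, against 19.2% of all promoters and 14.3% of those of genes tested. CCAAT boxes were found in 6 of 8 and 16 of 19, against 37.4% and 38.0%. A member was counted if any of its promoters held the motif, whereas the percentages are shares of single promoters. A match describes the letters in this window and is not a measured binding site. Below are the 200 bases from 150 before to 50 after the start for 3 helicase genes and 3 mitotic genes on which the results turn. In the helicase genes capitals mark E2F motifs, and overlapping matches form one run: Mcm3 (chr1:20820263-20820462, minus strand), Mcm5 (chr8:75109359-75109558, plus strand) and Mcm6 (chr1:128359656-128359855, minus strand). In the mitotic genes capitals mark CHR motifs and CCAAT boxes, in either orientation: Cdk1 (chr10:69352863-69353062, minus strand), Cdc20 (chr4:118437294-118437493, minus strand) and Ube2c (chr2:164769779-164769978, plus strand).
Mcm3: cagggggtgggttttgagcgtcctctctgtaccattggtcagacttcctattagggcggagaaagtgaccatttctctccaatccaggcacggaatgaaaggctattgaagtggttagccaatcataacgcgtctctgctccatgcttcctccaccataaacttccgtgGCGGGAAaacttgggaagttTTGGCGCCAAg
Mcm5: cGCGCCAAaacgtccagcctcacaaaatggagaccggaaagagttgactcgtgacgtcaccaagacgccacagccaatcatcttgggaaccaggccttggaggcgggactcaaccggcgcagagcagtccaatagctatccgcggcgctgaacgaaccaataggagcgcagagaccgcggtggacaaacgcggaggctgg
Mcm6: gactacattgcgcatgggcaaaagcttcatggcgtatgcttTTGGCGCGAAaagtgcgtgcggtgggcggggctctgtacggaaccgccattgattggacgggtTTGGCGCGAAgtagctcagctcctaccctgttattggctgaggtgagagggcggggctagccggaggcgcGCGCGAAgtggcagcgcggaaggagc
Cdk1: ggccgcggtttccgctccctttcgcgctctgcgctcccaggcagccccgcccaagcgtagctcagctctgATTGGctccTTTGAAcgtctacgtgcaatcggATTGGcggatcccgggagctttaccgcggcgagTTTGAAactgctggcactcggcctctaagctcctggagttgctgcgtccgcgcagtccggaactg
Cdc20: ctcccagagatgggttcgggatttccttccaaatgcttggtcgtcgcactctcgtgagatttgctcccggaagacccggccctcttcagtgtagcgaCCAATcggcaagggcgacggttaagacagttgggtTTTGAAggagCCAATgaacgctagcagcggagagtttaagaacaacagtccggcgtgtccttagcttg
Ube2c: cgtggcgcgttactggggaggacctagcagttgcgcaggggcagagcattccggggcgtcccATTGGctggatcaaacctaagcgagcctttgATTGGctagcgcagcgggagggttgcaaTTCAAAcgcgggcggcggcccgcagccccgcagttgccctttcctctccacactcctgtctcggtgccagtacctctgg

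Mcm6 held 5 E2F matches in these 200 bases, Mcm3 held 3 and Mcm5 held 1, at the far upstream end. Cdk1 held 4 CHR or CCAAT matches, and Cdc20 and Ube2c held 3 each. Motifs of the other kind were left unmarked. Mcm3, Mcm5 and Mcm6 also held CCAAT boxes, though no CHR motif, and Cdk1 also held an E2F motif, unlike Cdc20 and Ube2c. In GENCODE M21 on GRCm38, all 6 are protein-coding: Mcm3 (ENSMUSG00000041859) spans chr1:20802968-20820312, Mcm5 (ENSMUSG00000005410) chr8:75109569-75128439, Mcm6 (ENSMUSG00000026355) chr1:128331590-128359664, Cdk1 (ENSMUSG00000019942) chr10:69335146-69352938, Cdc20 (ENSMUSG00000006398) chr4:118432901-118437352 and Ube2c (ENSMUSG00000001403) chr2:164769898-164778822. The counts are summed over exons of a gene, so they do not locate a signal within it.

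Libraries held 13.3 to 20.6 M counts, of which the 43 members took 1433 to 4994. Levels are CPM (counts per M counts of the library), on library sizes scaled by TMM, and 1 CPM stood for 12.0 to 21.1 counts. Mitotic values below 1 CPM thus rest on few reads. The targeted gene Ercc1 lay between 1.08 and 2.33 CPM in the 12 mutant libraries and between 2.06 and 4.46 CPM in the 12 wild-type libraries, which overlap narrowly. The 8 hepatocyte markers summed to at least 73041 CPM in every library. A change was called at a Benjamini-Hochberg adjusted p under 0.05 in edgeR's quasi-likelihood test, fitted to all 12690 genes that passed the filter on low counts. Of the members, 42 passed it and Bub1 did not. Where exons of a member overlap a gene on the other strand its value is less certain, since the use of strand in counting is not given in the sources used here. That holds most for Gins2, which shares 2758 of its 4097 exonic bases with Gse1, and to a smaller extent for Kif20a, Ccnd1, Prc1, Ccne2, Ube2c and Ccna2, which share between 510 and 1271. Pcna, Ccnb1, Ccnb2, Tyms and Stmn1 have annotated pseudogene copies that may share their reads.

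**Figure D1:**
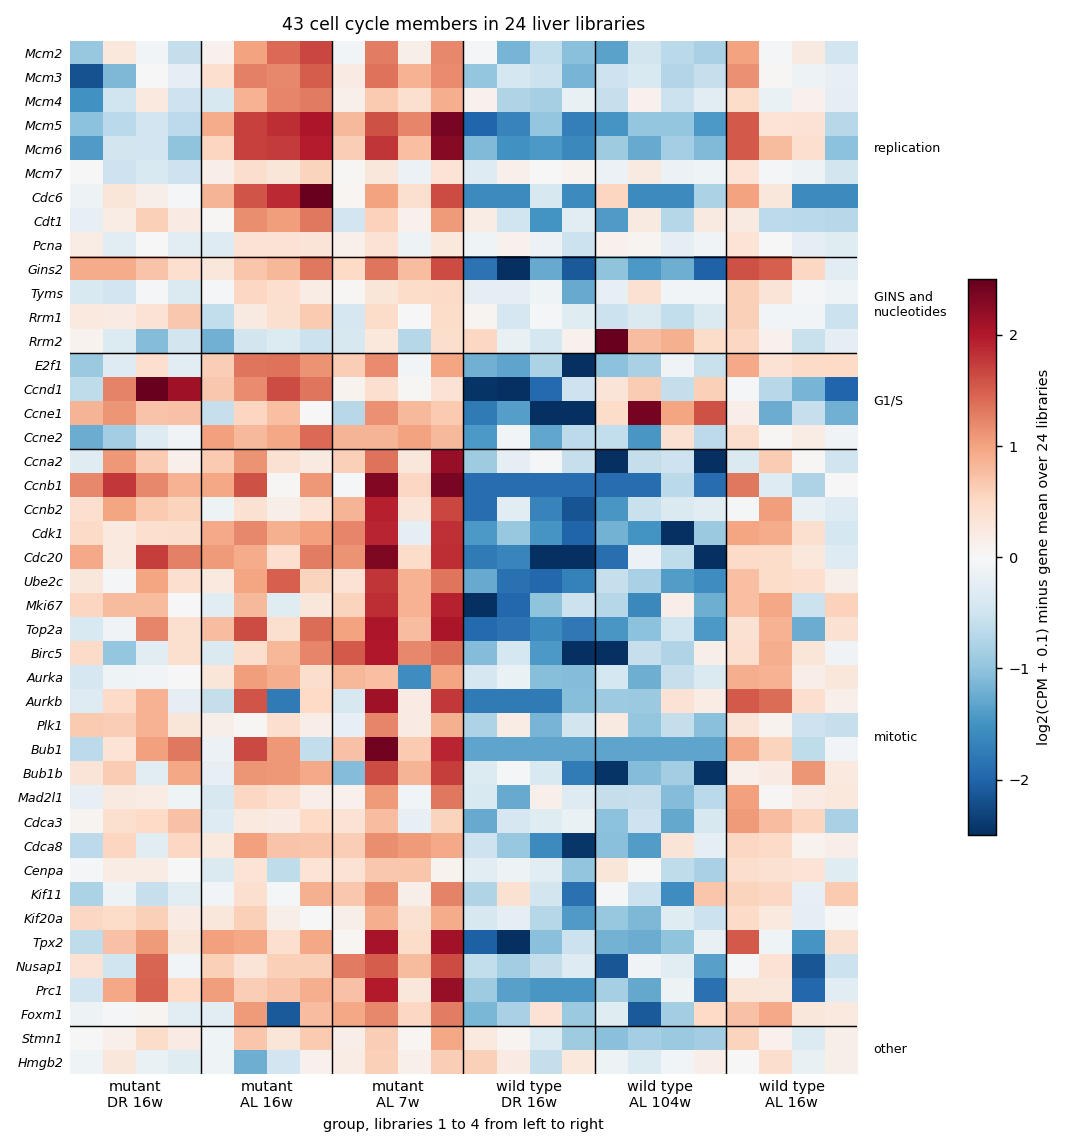
Level of each of the 43 members (rows, by role) in each of 24 libraries (columns, 4 per group), as log2(CPM + 0.1) minus the gene's mean over the 24 libraries, with red above and blue below that mean. The replication rows are mostly blue in both restricted groups and at 104 weeks, whereas the mitotic rows are blue in restricted wild type and at 104 weeks and mostly pale or red in the restricted mutant.

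In the restricted mutant, 7 of the 9 replication members fell relative to the freely fed mutant, with Cdt1 and Pcna uncalled, and no mitotic member was called. E2f1 and Ccne2 fell too. None of the 42 members tested rose, where 4.91% of all genes rose, and 9 fell, where 6.33% of all genes fell. The median log2 fold change of the replication members was -1.44, beside -0.19 for the 23 mitotic members and 0.00 for all genes tested. Without any 1 library the replication median stayed between -1.68 and -1.22. The mitotic median depended on single libraries, at 0.01 without restricted replicate 1, -0.38 without restricted replicate 3, -0.10 without restricted replicate 4, -0.35 without freely fed replicate 1 and -0.06 without freely fed replicate 2.

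Mcm5, a subunit of the replicative helicase, stood at 1.28, 1.66, 1.93 and 1.68 CPM in restricted mutants, against 5.29, 9.17, 10.0 and 11.3 CPM in freely fed mutants. The groups lay far apart, and the log2 fold change was -2.44 ± 0.38 (SE, edgeR adjusted p = 8.77e-05). Mcm6 had 1.69, 3.38, 3.33 and 2.27 CPM in restricted mutants, against 6.86, 15.4, 15.9 and 18.6 CPM in freely fed mutants (log2 fold change -2.41 ± 0.43, edgeR adjusted p = 4.69e-04). Mcm3 had 0.700, 1.56, 3.50 and 2.98 CPM, against 4.72, 8.60, 8.19 and 10.2 CPM (-1.86 ± 0.37, adjusted p = 0.00123). In each of these subunits the highest restricted library lay below the lowest freely fed one. Mcm4 had 1.98, 4.13, 6.95 and 4.08 CPM in restricted mutants, against 4.41, 10.8, 13.7 and 14.7 CPM in freely fed ones (-1.34 ± 0.33, edgeR adjusted p = 0.00842). Mcm2 had 2.10, 5.04, 3.97 and 2.72 CPM, against 4.47, 8.43, 11.3 and 13.5 CPM (-1.44 ± 0.38, adjusted p = 0.0143). For Mcm4 and Mcm2 the groups overlapped, because freely fed mutant replicate 1 was the lowest of its group in both genes.

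Mcm7 moved least of the called helicase genes, with 13.8, 9.65, 10.7 and 9.66 CPM in restricted mutants, against 15.7, 19.0, 17.2 and 20.5 CPM in freely fed mutants (log2 fold change -0.72 ± 0.17, edgeR adjusted p = 0.00516). The loading factor Cdc6 was scarce, at 0.175, 0.268, 0.233 and 0.194 CPM, against 0.441, 0.798, 0.997 and 1.97 CPM (-2.22 ± 0.72, adjusted p = 0.0457), and its call was lost without any 1 of 7 of the 8 libraries. Both remaining replication members were uncalled. Cdt1, the partner of Cdc6 in loading, had 1.87, 2.47, 3.33 and 2.53 CPM in restricted mutants, against 2.20, 4.96, 4.56 and 5.53 CPM in freely fed mutants (-0.76 ± 0.38, edgeR adjusted p = 0.218). Pcna had 27.0, 19.8, 23.5 and 19.5 CPM, against 18.9, 30.5, 30.4 and 29.6 CPM (-0.28 ± 0.17, adjusted p = 0.320), again with freely fed replicate 1 the lowest. Dropping freely fed replicate 1, which was the lowest of its group in all 9 replication members, left 7 replication members called.

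Among G1/S genes, Ccne2 (cyclin E2) had 0.934, 1.23, 1.87 and 2.20 CPM in restricted mutants, against 4.91, 4.16, 4.70 and 6.42 CPM in freely fed mutants (log2 fold change -1.70 ± 0.33, edgeR adjusted p = 9.05e-04). E2f1 had 1.17, 1.82, 3.09 and 1.88 CPM, against 3.59, 5.98, 6.06 and 5.15 CPM (-1.38 ± 0.32, adjusted p = 0.00528). Neither pair of groups overlapped. Ccnd1 (cyclin D1), the sensor of growth signals, had 11.2, 41.7, 125 and 76.7 CPM in restricted mutants, against 28.1, 39.9, 54.4 and 44.4 CPM in freely fed mutants (0.61 ± 0.55, edgeR adjusted p = 0.542). The restricted mutants held both the lowest and the highest Ccnd1 of these 8 libraries.

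Of the mitotic members, 0 of 23 tested were called in the restricted mutant by edgeR, 0 by DESeq2, and 1 fell at an unadjusted p under 0.05. Mki67, the proliferation marker on chromosomes, had 4.90, 5.85, 5.90 and 3.37 CPM in restricted mutants, against 2.77, 5.93, 2.71 and 4.07 CPM in freely fed mutants (log2 fold change 0.37 ± 0.42, edgeR adjusted p = 0.644). Cdk1, the mitotic kinase, had 1.52, 1.29, 1.46 and 1.49 CPM, against 2.14, 2.56, 2.07 and 2.29 CPM (-0.65 ± 0.39, adjusted p = 0.306). Cdk1 libraries did not overlap between the diets although the gene was not called, and Mki67 libraries did. Aurka and Kif11, lower with restriction, and Ccnb2, higher with restriction, did not overlap either and were also uncalled. The mitotic estimates ran from -0.92 for Aurka to 0.51 for Ccnb2, with 8 above 0, and an uncalled gene is not thereby shown to be equal. Macrophage markers summed to 289.7 to 401 CPM in restricted and 185 to 368 CPM in freely fed mutants, with 1 of 12 higher, 0 lower and none of the 12 at 0 in either group. Of 8 hepatocyte markers 1 was higher and 3 were lower, with sums of 87704 to 114767 CPM in restricted and 81120 to 102698 CPM in freely fed mutants. Of 8 endothelial markers 2 were higher, with sums of 98.1 to 141 CPM in restricted and 84.2 to 109 CPM in freely fed mutants, and none of either list was at 0. In addition 1 of 8 stellate and fibroblast markers was higher and 1 of 7 erythroid markers lower. Of 3 T and NK cell markers tested 1 was lower, with sums over the list of 1.69 to 2.80 CPM in restricted and 2.45 to 4.22 CPM in freely fed mutants. The part of these cell types in the member values was not tested.

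**Figure D2:**
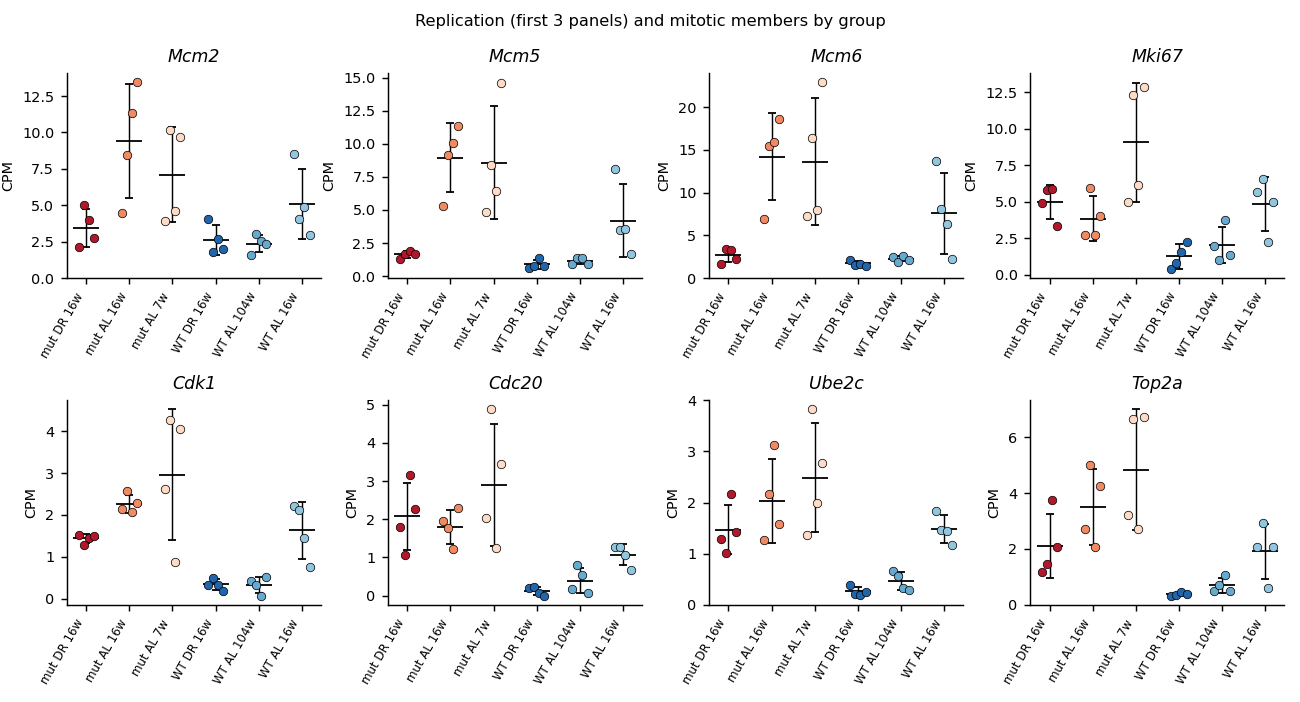
CPM of 3 replication genes (Mcm2, Mcm5, Mcm6) and 5 mitotic genes (Mki67, Cdk1, Cdc20, Ube2c, Top2a) by group, with a point per library, a bar at the mean and whiskers of 1 SD (n = 4). In the restricted mutant Mcm5 averaged 1.64 CPM, against 8.95 CPM in the freely fed mutant, while Cdc20 averaged 2.08 and 1.80 CPM in the same groups. Cdk1, though uncalled, was lower in every restricted mutant library than in any freely fed mutant library of 16 weeks.

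In restricted wild-type liver, most of the members that fell relative to freely fed wild-type liver of 16 weeks were mitotic. None of 42 members rose (6.30% of all genes rose) and 19 fell (7.30% of all genes fell): 13 of 23 mitotic genes, 3 of 9 replication genes (Mcm3, Mcm5, Mcm6), Gins2, E2f1 and Ccne1. The median log2 fold change was -1.42 over the mitotic members, also with Ccnb1 at its bound, -0.94 over the replication members and 0.04 over all genes. Freely fed replicate 1 had the highest level of its group in all 9 replication members. Without it 12 members were called, 8 of them mitotic, and the replication median was -0.57. Without restricted replicate 4 the counts were also 12 and 8. A fit of these groups alone called 9 members, 6 of them mitotic.

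Mcm5 had 0.617, 0.788, 1.35 and 0.760 CPM in restricted wild type, against 8.11, 3.46, 3.53 and 1.64 CPM in freely fed wild type (log2 fold change -2.27 ± 0.42 by edgeR, adjusted p = 6.96e-04). Mcm6 had 2.14, 1.58, 1.67 and 1.46 CPM, against 13.7, 8.12, 6.29 and 2.26 CPM (-2.14 ± 0.45, adjusted p = 0.00248). No restricted library reached the freely fed range, though freely fed replicate 4 came close to it in both genes. Mcm2 had 4.08, 1.79, 2.70 and 1.96 CPM in restricted wild type, against 8.50, 4.06, 4.85 and 2.95 CPM in freely fed wild type (-0.94 ± 0.39, edgeR adjusted p = 0.114). Pcna had 22.1, 25.5, 21.5 and 16.4 CPM, against 30.1, 23.9, 20.3 and 19.3 CPM (-0.13 ± 0.17, adjusted p = 0.660). Mcm2 and Pcna overlapped between the diets and were not called. The call of Mcm3 (-1.12 ± 0.38) sat at the threshold and was lost without any 1 of 6 of the 8 libraries.

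Gins2 had the lowest adjusted p of the members in this comparison. It had 0.0949, 0, 0.193 and 0.0634 CPM in restricted wild type, against 2.00, 1.86, 0.898 and 0.480 CPM in freely fed wild type (log2 fold change -3.76 ± 0.56 by edgeR, adjusted p = 7.36e-05). Gse1, the gene that overlaps it, averaged 16.7 ± 1.31 and 15.1 ± 3.84 CPM in the same groups (SD, n = 4 each) and was not called (0.15 ± 0.17, adjusted p = 0.590). E2f1 had 0.949, 0.860, 1.28 and 0.317 CPM in restricted wild type, against 4.50, 2.99, 3.23 and 3.29 CPM in freely fed wild type (-2.03 ± 0.35, edgeR adjusted p = 4.13e-04). Both genes were separated fully between the diets. Ccnd1 had 3.13, 1.58, 4.49 and 12.2 CPM, against 17.1, 10.8, 7.78 and 4.39 CPM (-0.91 ± 0.60, edgeR adjusted p = 0.337), with overlapping groups.

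Ube2c, the ubiquitin-conjugating enzyme of the anaphase-promoting complex, had 0.380, 0.215, 0.193 and 0.253 CPM in restricted wild type, against 1.83, 1.46, 1.44 and 1.17 CPM in freely fed wild type (log2 fold change -2.44 ± 0.42 by edgeR, adjusted p = 3.38e-04). Cdk1 had 0.332, 0.501, 0.321 and 0.190 CPM, against 2.22, 2.13, 1.44 and 0.754 CPM (-2.28 ± 0.46, adjusted p = 0.00182). Cdc20, the activator of that complex, had 0.190, 0.215, 0.0642 and 0 CPM, against 1.28, 1.26, 1.08 and 0.685 CPM (-3.09 ± 0.65, edgeR adjusted p = 0.00229). All 3 genes were lower in every restricted library than in any freely fed one. Top2a, the topoisomerase that untangles sister chromatids, had 0.332, 0.358, 0.449 and 0.380 CPM in restricted wild type, against 2.06, 2.93, 0.599 and 2.06 CPM in freely fed wild type (-2.31 ± 0.50, edgeR adjusted p = 0.00311). Mki67 had 0.427, 0.788, 1.61 and 2.28 CPM, against 5.67, 6.59, 2.27 and 5.0 CPM (-1.95 ± 0.47, adjusted p = 0.00692), and here the highest restricted library barely exceeded the lowest freely fed one.

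Cyclin B1 (Ccnb1) had 0 counts in the 4 restricted wild-type libraries, against 24 counts in the freely fed ones, at least 8.26-fold lower when the restricted group is set to a floor of 3 counts in all. The kinase Aurkb had 1 count against 38, a ratio of 39.2 times lower with a 95% exact counting interval of 6.63 to 1590 that covers counting error only, as do all floors and intervals here. Bub1, which failed the filter, had 0 counts against 14 (at least 4.82-fold lower). Cdc6 had 2 counts against 13, or 6.71 times lower (1.52 to 61.2), and was not called (edgeR adjusted p = 0.190). The other called mitotic genes were Ccnb2, Birc5, Aurka, Cdca3, Cdca8 and Tpx2, with log2 fold changes between -2.38 (Tpx2) and -1.12 (Cdca3). Erythroid markers fell with them, 3 of 7 tested, with summed levels of 388 to 838 CPM in restricted and 1273 to 2304 CPM in freely fed wild type and only Slc4a1 at 0 counts in the restricted group. Macrophage markers summed to 97.2 to 171 CPM in restricted and 121 to 182 CPM in freely fed wild type, with 1 of 12 higher, 0 lower and none at 0 in either group. Of the other lists, 1 of 3 B and plasma cell markers was lower, 1 of 8 hepatocyte markers was higher and 1 lower, 1 of 8 stellate and fibroblast markers was higher and 2 were lower, and 1 of 6 cholangiocyte markers was higher. The part of these cell types in the member values was not tested.

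**Figure D3:**
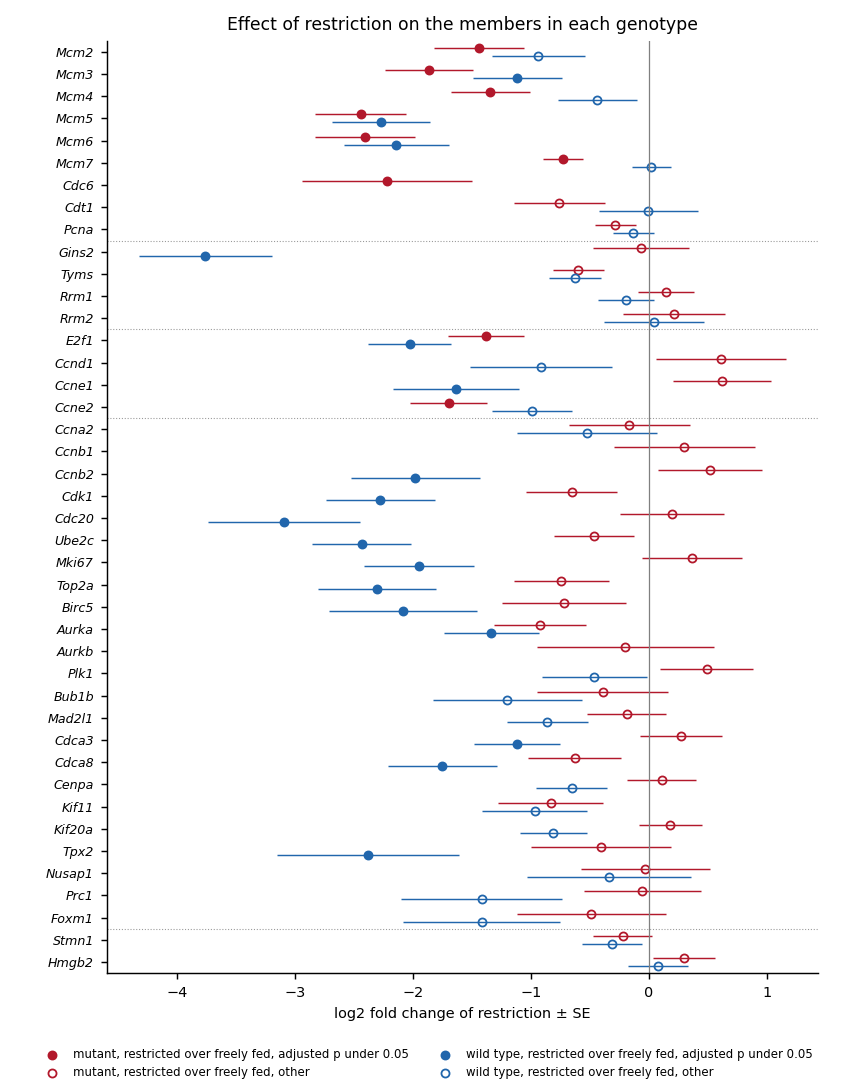
Log2 fold change of restriction over free feeding ± SE for the members, by role, in the mutant (red) and in wild type (blue), with filled points at an adjusted p under 0.05; wild-type Ccnb1, Aurkb and Cdc6 are left out because a group held 3 counts or fewer. Helicase genes lie left of 0 in both genotypes, apart from wild-type Mcm7 at 0.02, whereas the mitotic block lies left of 0 in wild type and around 0 in the mutant.

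The difference between those effects was tested directly as the interaction of diet and genotype. It was called higher, meaning a smaller fall or a rise in the mutant, for 2 of 42 members (0.906% of all genes) and lower for 0 (0.591% of all genes, and 1 member at an unadjusted p under 0.05). The 2 were Gins2 (log2 3.70 ± 0.71, edgeR adjusted p = 0.00588) and Cdc20 (3.29 ± 0.79, adjusted p = 0.0342). Gins2 had 1.23, 1.23, 1.05 and 0.842 CPM in restricted mutants and 0.755, 1.03, 1.14 and 1.65 CPM in freely fed mutants, which overlap, unlike the wild-type values above. Cdc20 had 1.81, 1.07, 3.15 and 2.27 CPM in restricted and 1.95, 1.77, 1.21 and 2.29 CPM in freely fed mutants. The call of Cdc20 was lost without any 1 of 10 of the 16 libraries (adjusted p up to 0.0752), whereas that of Gins2 held without each of the 16. Gse1 had an interaction of -0.19 ± 0.23 (edgeR adjusted p = 0.777).

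All 23 mitotic estimates of the interaction were above 0, with a median of 1.36, against -0.04 for all genes tested. Of these 23, 10 passed an unadjusted p under 0.05, and DESeq2 called 6 of them and 8 members in all, where edgeR called 1 and 2. Mki67 (2.32 ± 0.63, edgeR adjusted p = 0.0657) and Ube2c (1.97 ± 0.54, adjusted p = 0.0668) missed the threshold narrowly. For the replication members the median was -0.50, 1 of 9 estimates was above 0, and 0 of 9 were called by edgeR or DESeq2. This replication median was -0.28 without freely fed mutant replicate 4, -0.32 without restricted mutant replicate 1, -0.33 without restricted wild-type replicate 1, -0.89 without freely fed wild-type replicate 1 and -0.32 without freely fed wild-type replicate 4. Thus a difference in the effect of restriction was called by edgeR for Cdc20 alone among mitotic members, and for no replication member. Mutant and wild-type effects of restriction share no library.

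Restricted mutants set against restricted wild type had 13 of 23 mitotic members higher, whereas no replication member was called. Of 42 members 17 rose, or 40.5%, where 9.58% of all genes rose, and 0 fell, where 8.70% of all genes fell (0 members at an unadjusted p under 0.05, DESeq2 called 19 members in all). Beside the mitotic members, Gins2 and 3 G1/S genes (E2f1, Ccnd1, Ccne1) rose. A fit of these groups alone called 10 members, 7 of them mitotic. Of the 9 replication members 0 were called by edgeR or DESeq2, and 2 rose at an unadjusted p under 0.05. The median log2 fold change was 1.53 over the mitotic members, also with Ccnb1 at its bound, 0.38 over the replication members and -0.03 over all genes. The replication median was 0.22 without restricted mutant replicate 2, 0.68 without restricted wild-type replicate 1 and 0.24 without restricted wild-type replicate 2. This comparison shares its libraries with both restriction comparisons above.

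Cdc20 stood at 1.81, 1.07, 3.15 and 2.27 CPM in restricted mutants, against 0.190, 0.215, 0.0642 and 0 CPM in restricted wild type (a log2 fold change of 4.03 ± 0.62, edgeR adjusted p = 5.77e-05). Ube2c had 1.28, 1.02, 2.16 and 1.43 CPM, against 0.380, 0.215, 0.193 and 0.253 CPM (2.43 ± 0.42, adjusted p = 2.12e-04). Every mutant library lay above every wild-type one in both genes. Top2a had 1.17, 1.45, 3.74 and 2.07 CPM in restricted mutants, against 0.332, 0.358, 0.449 and 0.380 CPM in restricted wild type (2.45 ± 0.50, edgeR adjusted p = 0.00112). Ccnb2 (cyclin B2) had 0.876, 1.34, 1.05 and 0.972 CPM, against 0.0949, 0.501, 0.128 and 0.0634 CPM (2.47 ± 0.53, adjusted p = 0.00189). Ccnb1 had 57 counts in restricted mutants and 0 in restricted wild type, at least 18.5-fold higher (edgeR adjusted p = 6.29e-04). Its levels were 0.759, 1.18, 0.759 and 0.583 CPM in the restricted mutants.

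Mki67 rose too, at the values given above (1.99 ± 0.46, edgeR adjusted p = 0.00409), as did Cdk1 (2.08 ± 0.47, adjusted p = 0.00277), whose 4 mutant libraries lay between 1.29 and 1.52 CPM, against 0.190 to 0.501 CPM in wild type. The other mitotic risers were Prc1, Kif20a, Cdca8, Tpx2, Plk1 and Aurkb, which act on the spindle and in cytokinesis. Of these, Kif20a had 2.68, 2.57, 2.86 and 2.14 CPM in restricted mutants, against 1.38, 1.58, 1.09 and 0.634 CPM in restricted wild type (1.13 ± 0.28, edgeR adjusted p = 0.00626). Kif20a was chosen for display after its values were seen. The calls of Prc1 and Kif20a held without each of the 8 libraries. That of Plk1 was lost without any 1 of 6 of them, that of Aurkb without any 1 of 5, and those of Tpx2 and Cdca8 without any 1 of 4. Aurkb had 22 counts against 1, or 21.4 times higher (3.45 to 882), and Bub1 had 20 counts against 0, at least 6.48-fold higher.

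Among the G1/S genes, Ccne1 had 3.74, 4.45, 3.39 and 3.43 CPM in restricted mutants, against 0.522, 0.716, 0.257 and 0.190 CPM in restricted wild type (a log2 fold change of 3.13 ± 0.50, edgeR adjusted p = 1.01e-04). Ccnd1 had 11.2, 41.7, 125 and 76.7 CPM, against 3.13, 1.58, 4.49 and 12.2 CPM (3.57 ± 0.62, adjusted p = 4.54e-04). Ccne1 was tight within each group, while Ccnd1 spread widely in both and the groups overlapped at 1 library each. LTO1, which shares 1100 of the 4709 exonic bases of Ccnd1 on the other strand, also rose (0.90 ± 0.26, edgeR adjusted p = 0.0175). Gins2, with the values given above, rose by 3.49 ± 0.57 (edgeR adjusted p = 1.20e-04), where Gse1 had 0.45 ± 0.17 (adjusted p = 0.0585). E2f1 had 1.17, 1.82, 3.09 and 1.88 CPM in restricted mutants, against 0.949, 0.860, 1.28 and 0.317 CPM in restricted wild type (1.21 ± 0.36, edgeR adjusted p = 0.0208).

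No replication member was called between the restricted genotypes. Cdc6, though uncalled, did not overlap: it had 15 counts in restricted mutants and 2 in restricted wild type, or 7.29 times higher (1.69 to 65.7). Mcm2 had 2.10, 5.04, 3.97 and 2.72 CPM in restricted mutants, against 4.08, 1.79, 2.70 and 1.96 CPM in restricted wild type (a log2 fold change of 0.38 ± 0.40, edgeR adjusted p = 0.554). Pcna had 27.0, 19.8, 23.5 and 19.5 CPM, against 22.1, 25.5, 21.5 and 16.4 CPM (0.07 ± 0.17, adjusted p = 0.822). Mcm5 overlapped only through the lowest mutant library, at 1.28 CPM, and the highest wild-type one, at 1.35 CPM, and was not called (0.91 ± 0.44, edgeR adjusted p = 0.154). Macrophage markers moved in this comparison, with 12 of 12 higher, summed levels of 289.7 to 401 CPM in restricted mutants and 97.2 to 171 CPM in restricted wild type, and none of the 12 at 0 in either group. Hepatocyte markers summed to 87704 to 114767 CPM in restricted mutants and 119596 to 157529 CPM in restricted wild type, which do not overlap, with 1 of 8 higher, 3 lower and none at 0. Of 3 neutrophil markers tested 2 were higher, with sums over the list of 5.02 to 8.30 CPM in restricted mutants and 2.56 to 7.74 CPM in restricted wild type and Mpo, Elane and Ngp at 0 in both groups. Of 7 erythroid markers 1 was higher. The part of these cell types in the member values was not tested.

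**Figure D4:**
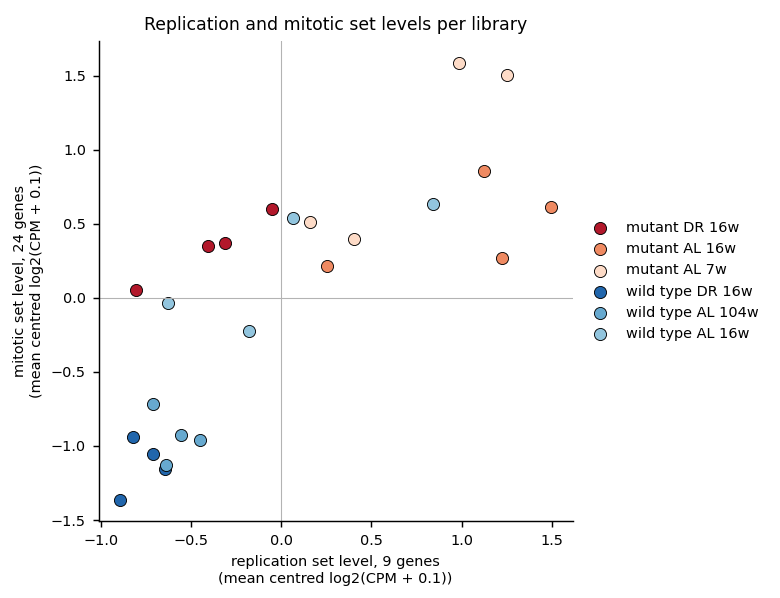
Mitotic set level against replication set level in each of 24 libraries, where a set level is the mean over its genes of log2(CPM + 0.1) minus each gene's mean over the 24 libraries (24 mitotic and 9 replication genes). Restricted mutants lie at replication levels of -0.81 to -0.05 and mitotic levels of 0.05 to 0.60, apart from restricted and 104-week wild type, which lie at mitotic levels of -1.36 to -0.72.

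Set levels per library restate the same members in the same libraries, so they describe the split and do not test it again. The replication set averaged -0.39 ± 0.31 in restricted mutants, 1.02 ± 0.54 in freely fed mutants of 16 weeks and 0.70 ± 0.51 at 7 weeks (log2 units, SD, n = 4 each). In wild type it averaged -0.77 ± 0.11 after restriction, -0.59 ± 0.11 at 104 weeks and 0.02 ± 0.62 with free feeding at 16 weeks. The mitotic set averaged 0.34 ± 0.23 in restricted mutants, 0.49 ± 0.30 in freely fed mutants and 1.00 ± 0.63 at 7 weeks. In wild type it averaged -1.13 ± 0.18 after restriction, -0.93 ± 0.17 at 104 weeks and 0.23 ± 0.42 at 16 weeks. The 3 freely fed groups of 7 and 16 weeks had the largest SDs in both sets. Among mutants of 7 weeks, replicates 2 and 4 stood at 1.59 and 1.51 in the mitotic set and at 0.99 and 1.25 in the replication set, while replicates 1 and 3 stood at 0.51 and 0.40 in the mitotic set and at 0.16 and 0.40 in the replication set.

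With free feeding at 16 weeks, mutants differed from wild type in few members. Of 42, 3 rose (5.10% of all genes rose) and 0 fell (4.85% of all genes fell; 0 members at an unadjusted p under 0.05), namely Cdt1, Ccnd1 and Cdc6. DESeq2 called 5 members. The median log2 fold change was 0.88 over the replication members, 8 of which passed an unadjusted p under 0.05, 0.35 over the mitotic members, of which edgeR and DESeq2 called 0 and 2 passed that level, and 0.02 over all genes. The mitotic median was 0.22 without mutant replicate 3, 0.20 without wild-type replicate 3 and 0.22 without wild-type replicate 4.

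Cdt1 had 2.20, 4.96, 4.56 and 5.53 CPM in freely fed mutants, against 2.56, 1.33, 1.32 and 1.30 CPM in freely fed wild type (log2 fold change 1.39 ± 0.40 by edgeR, adjusted p = 0.0246). Ccnd1 had 28.1, 39.9, 54.4 and 44.4 CPM, against 17.1, 10.8, 7.78 and 4.39 CPM (2.05 ± 0.58, adjusted p = 0.0286). Cdc6 had 0.441, 0.798, 0.997 and 1.97 CPM in mutants, against 0.500, 0.266, 0 and 0 CPM in wild type (2.36 ± 0.74, edgeR adjusted p = 0.0410). Ccnd1 alone of these was higher in every mutant library than in any wild-type library. In Cdt1 and Cdc6, mutant replicate 1 fell into the wild-type range. These calls depended on single libraries: without wild-type replicate 1, 7 members were called, 6 of them replication genes, without mutant replicate 1 the counts were 5 and 4, and without each of the other 6 libraries 0 or 1 member was called.

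Mcm2 had 4.47, 8.43, 11.3 and 13.5 CPM in freely fed mutants, against 8.50, 4.06, 4.85 and 2.95 CPM in freely fed wild type (log2 fold change 0.88 ± 0.37 by edgeR, adjusted p = 0.144). Pcna had 18.9, 30.5, 30.4 and 29.6 CPM, against 30.1, 23.9, 20.3 and 19.3 CPM (0.23 ± 0.17, adjusted p = 0.462). In both genes the lowest mutant and the highest wild-type library were replicate 1 of its group. Mki67 had 2.77, 5.93, 2.71 and 4.07 CPM in mutants, against 5.67, 6.59, 2.27 and 5.0 CPM in wild type (-0.33 ± 0.42, edgeR adjusted p = 0.704). Cdk1 had 2.14, 2.56, 2.07 and 2.29 CPM, against 2.22, 2.13, 1.44 and 0.754 CPM (0.46 ± 0.38, adjusted p = 0.508). Beside these values, 8 of 12 macrophage markers rose, with sums of 185 to 368 CPM in mutants and 121 to 182 CPM in wild type and none at 0 in either group, and 4 of 7 erythroid markers fell, with sums of 377 to 754 CPM in mutants and 1273 to 2304 CPM in wild type and none at 0 in either group. In addition 1 of 8 hepatocyte markers was lower. Of the markers tested, 1 of 3 T and NK cell, 1 of 3 B and plasma cell and 1 of 3 neutrophil markers were higher. Their part was not tested.

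**Figure D5:**
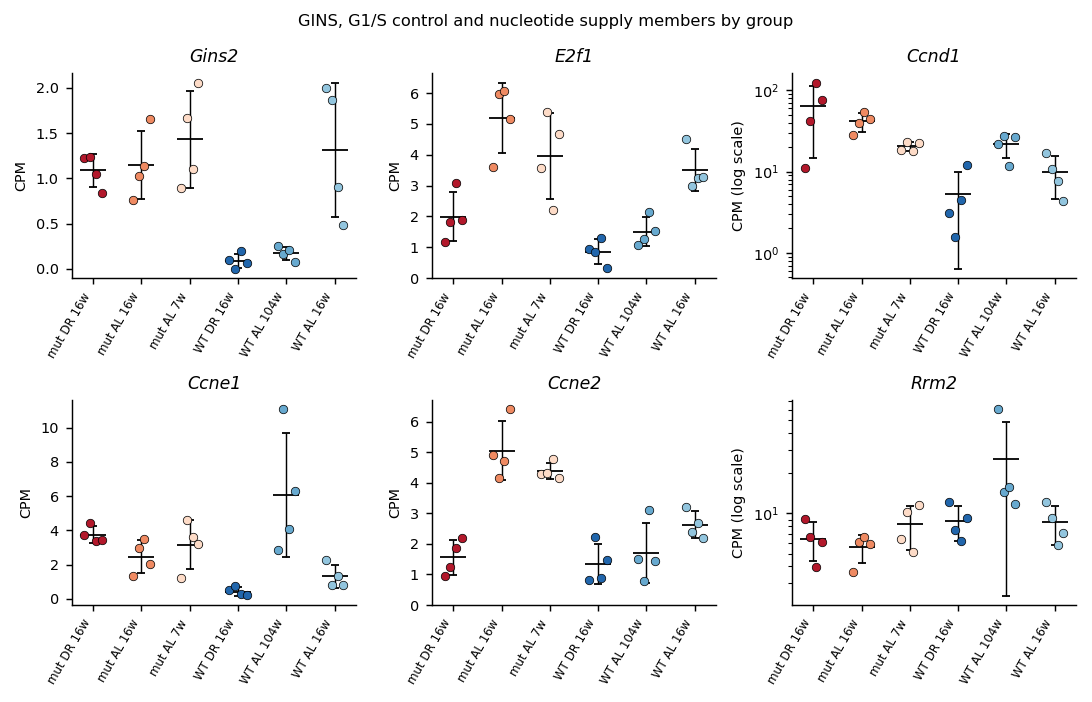
CPM of Gins2, E2f1, Ccnd1, Ccne1, Ccne2 and Rrm2 by group, with a point per library, a bar at the mean and whiskers of 1 SD (n = 4); Ccnd1 and Rrm2 are on a log axis. Gins2 lies at 0.249 CPM or below in the 8 restricted and 104-week wild-type libraries and at 0.480 CPM or above in the other 16.

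In wild-type liver of 104 weeks, a minority of the mitotic and replication members fell relative to wild-type liver of 16 weeks, while Ccne1 and Rrm2 rose. Of 42 members 2 rose (5.13% of all genes rose) and 11 fell (5.0% of all genes fell). Those that fell were 6 of 23 mitotic genes (Cdk1, Ube2c, Cdca3, Mad2l1, Bub1b, Aurka), 2 of 9 replication genes (Mcm5, Mcm6), Gins2, E2f1 and Stmn1. The median log2 fold change was -1.27 over the mitotic members, all 23 of which were estimated below 0, -0.90 over the replication members and 0.02 over all genes. Without 16-week replicate 1, or without 104-week replicate 1, 8 members and 3 mitotic members were called. The replication median was -0.23 without 16-week replicate 1 and -0.57 without 104-week replicate 3.

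Gins2 had 0.249, 0.158, 0.202 and 0.0728 CPM at 104 weeks, against 2.00, 1.86, 0.898 and 0.480 CPM at 16 weeks (log2 fold change -2.90 ± 0.53, edgeR adjusted p = 8.20e-04). Cdk1 had 0.416, 0.316, 0.0673 and 0.509 CPM, against 2.22, 2.13, 1.44 and 0.754 CPM (-2.32 ± 0.48, adjusted p = 0.00271). Neither gene overlapped between the ages. Mcm5 had 0.915, 1.34, 1.35 and 0.946 CPM at 104 weeks, against 8.11, 3.46, 3.53 and 1.64 CPM at 16 weeks (-1.88 ± 0.41, edgeR adjusted p = 0.00399). Mcm6 had 2.49, 1.90, 2.56 and 2.11 CPM, against 13.7, 8.12, 6.29 and 2.26 CPM (-1.75 ± 0.44, adjusted p = 0.0129), and its call was lost without 16-week replicate 1, where the estimate was -1.30. Both helicase genes varied less among the 4 libraries of 104 weeks than among those of 16 weeks.

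Ube2c had 0.665, 0.554, 0.337 and 0.291 CPM at 104 weeks, against 1.83, 1.46, 1.44 and 1.17 CPM at 16 weeks (log2 fold change -1.69 ± 0.40, edgeR adjusted p = 0.00790). Cdca3, a trigger of mitotic entry, had 0.582, 0.870, 0.471 and 0.946 CPM, against 2.78, 2.26, 1.92 and 0.685 CPM (-1.42 ± 0.38, adjusted p = 0.0181). Stmn1 (stathmin), which destabilises microtubules, had 1.91, 2.21, 2.09 and 2.18 CPM at 104 weeks, against 6.00, 4.39, 3.17 and 4.52 CPM at 16 weeks (-1.11 ± 0.27, edgeR adjusted p = 0.00897). Ube2c and Stmn1 were separated between the ages, and Cdca3 overlapped through 16-week replicate 4. Ccnb1 had 2 counts against 24, or 9.94 times lower (2.47 to 86.8), and Bub1 had 0 counts against 14, at least 3.87-fold lower.

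Against that direction, Ccne1 had 2.83, 11.1, 4.11 and 6.33 CPM at 104 weeks, against 2.28, 0.798, 1.32 and 0.822 CPM at 16 weeks (log2 fold change 2.19 ± 0.44, edgeR adjusted p = 0.00174). Rrm2, a subunit of ribonucleotide reductase and the other member that rose, had 60.4, 14.5, 15.8 and 11.8 CPM, against 12.2, 9.18, 5.75 and 7.13 CPM (1.57 ± 0.42, adjusted p = 0.0197). Rrm2 was chosen for display after its values were seen, and its estimate depended most on 104-week replicate 1. Without that library the estimate was 0.71 and the call was lost. The Rrm2 call was also lost without 16-week replicate 3 and without 16-week replicate 4. Mki67 had 2.00, 1.03, 3.77 and 1.38 CPM at 104 weeks, against 5.67, 6.59, 2.27 and 5.0 CPM at 16 weeks (-1.24 ± 0.45, edgeR adjusted p = 0.0829). Mcm2 had 1.58, 3.00, 2.56 and 2.33 CPM, against 8.50, 4.06, 4.85 and 2.95 CPM (-1.11 ± 0.40, adjusted p = 0.0837). These 2 were lower on average but uncalled. Ccnd1 had 21.9, 27.4, 11.6 and 26.5 CPM at 104 weeks, against 17.1, 10.8, 7.78 and 4.39 CPM at 16 weeks (1.12 ± 0.58, edgeR adjusted p = 0.242), and Pcna had 25.4, 24.7, 20.4 and 22.3 CPM at 104 weeks (-0.01 ± 0.17, adjusted p = 0.977).

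Marker sums also moved with age. The 8 B and plasma cell markers summed to 43.3 to 51.7 CPM at 104 weeks and 4.79 to 11.2 CPM at 16 weeks, with 3 of 3 tested higher and none at 0 in either group. Macrophage markers summed to 178 to 343 CPM and 121 to 182 CPM, with 5 of 12 higher and none at 0. Of 3 neutrophil markers tested 2 were higher, with sums over the list of 8.14 to 11.1 CPM at 104 weeks and 7.98 to 10.6 CPM at 16 weeks, with Ngp at 0 in both groups and Ltf and Retnlg at 0 at 16 weeks. Of 8 hepatocyte markers 2 were higher, with sums of 73041 to 129881 CPM at 104 weeks and 99864 to 118614 CPM at 16 weeks. In addition 1 of 7 erythroid, 1 of 8 endothelial and 1 of 8 stellate and fibroblast markers were lower. Their part in the member values was not tested. The 104-week and the restricted wild-type comparison share their 4 freely fed wild-type libraries of 16 weeks, so their likeness is in part fixed by that group.

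Between freely fed mutants of 16 and of 7 weeks no member was called. Of 42 members edgeR called 0 higher (0.355% of all genes) and 0 lower (0.331% of all genes), DESeq2 called 0, and 4 members fell and 0 rose at an unadjusted p under 0.05. The median log2 fold change was 0.23 over the replication members, -0.55 over the mitotic members and 0.00 over all genes. The replication median was 0.37 without 16-week replicate 1, 0.15 without 16-week replicate 4, 0.36 without 7-week replicate 2 and 0.45 without 7-week replicate 4. The mitotic median was -0.35 without 7-week replicate 2 and -0.32 without 7-week replicate 4. Mki67 had 2.77, 5.93, 2.71 and 4.07 CPM at 16 weeks, against 4.98, 12.3, 6.17 and 12.9 CPM at 7 weeks (-1.23 ± 0.42, edgeR adjusted p = 0.229). Cdk1 had 2.14, 2.56, 2.07 and 2.29 CPM at 16 weeks, against 2.62, 4.27, 0.882 and 4.06 CPM at 7 weeks (-0.39 ± 0.37, edgeR adjusted p = 0.784). At 7 weeks replicates 2 and 4 were the high libraries in both genes. Mcm2 had 4.47, 8.43, 11.3 and 13.5 CPM at 16 weeks, against 3.93, 10.2, 4.63 and 9.68 CPM at 7 weeks (0.40 ± 0.37, edgeR adjusted p = 0.773). Pcna had 18.9, 30.5, 30.4 and 29.6 CPM, against 25.8, 30.5, 21.7 and 28.5 CPM (0.04 ± 0.17, adjusted p = 0.965). Ccnd1 had 28.1, 39.9, 54.4 and 44.4 CPM at 16 weeks, against 18.6, 23.4, 17.9 and 22.7 CPM at 7 weeks (1.01 ± 0.56, edgeR adjusted p = 0.559), with no overlap and no call.

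Several members passed the test in no comparison. Pcna, Tyms (thymidylate synthase), Rrm1 (the large subunit of ribonucleotide reductase), Hmgb2 (a chromatin protein), Ccna2 (cyclin A2), Cenpa (the centromeric histone), Kif11 (a spindle motor), Nusap1 (a spindle protein) and Foxm1 (the mitotic transcription factor) were called in none of the 6 pairwise comparisons or the interaction. Tyms, chosen for display after its values were seen, came nearest with restriction, at 5.37, 5.04, 6.83 and 5.51 CPM in restricted mutants, against 6.80, 10.1, 9.47 and 8.01 CPM in freely fed mutants (log2 fold change -0.60 ± 0.22, edgeR adjusted p = 0.0772). In wild type Tyms had 5.98, 5.95, 6.55 and 2.91 CPM after restriction, against 10.7, 8.91, 6.88 and 6.51 CPM with free feeding (-0.63 ± 0.22, adjusted p = 0.0567). Hmgb2 stayed between 1.71 and 6.40 CPM over all 24 libraries, and Foxm1 between 0 and 0.945 CPM.

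Other genes of the cell cycle were taken from lists. Among 27 other replication genes tested, 8 fell and 0 rose with restriction in the mutant, led by Cdc45 (log2 fold change -1.54 ± 0.31, edgeR adjusted p = 0.00122), the histone chaperone subunit Chaf1a (-1.67 ± 0.39, adjusted p = 0.00527) and Rpa2, which binds single-stranded DNA (-1.29 ± 0.30, adjusted p = 0.00537). In wild type 6 fell and 0 rose with restriction, led by Chaf1a (-2.94 ± 0.47, edgeR adjusted p = 1.54e-04) and the GINS subunit Gins4 (-0.95 ± 0.17, adjusted p = 6.34e-04). Over all genes, 6.33% fell and 4.91% rose with restriction in the mutant, and 7.30% fell and 6.30% rose in wild type. Cdc45 had 0.934, 0.697, 1.05 and 0.842 CPM in restricted mutants, against 1.32, 2.85, 2.92 and 3.24 CPM in freely fed mutants, and 0.617, 0.645, 1.09 and 0.570 CPM in restricted wild type, against 1.83, 2.59, 1.32 and 1.10 CPM in freely fed wild type. Chaf1a had 1.93, 1.18, 2.22 and 1.43 CPM in restricted mutants, against 0.237, 0.358, 0.449 and 0.507 CPM in restricted wild type (2.12 ± 0.49, edgeR adjusted p = 0.00331). It was thus a replication gene that differed between the restricted genotypes. There 2 of the 27 rose (7.41%, where 9.58% of all genes rose) and 2 fell (7.41%, where 8.70% of all genes fell). These counts were no higher than the shares over all genes.

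Among 37 other mitotic genes tested, 16 rose and 0 fell in restricted mutants relative to restricted wild type, where 9.58% of all genes rose and 8.70% fell. Those that rose were led by Gtse1 (log2 fold change 4.21 ± 0.50, edgeR adjusted p = 2.96e-06), and by Hmmr and Ckap2, spindle proteins with 79 against 2 counts (38.4 times higher, 10.3 to 322) and 112 against 2 counts (54.4 times higher, 14.7 to 455). Gtse1, a microtubule protein that also restrains p53, had 4.26, 4.50, 2.33 and 1.75 CPM in restricted mutants, against 0.190, 0.430, 0.0642 and 0 CPM in restricted wild type. Restriction lowered 14 and raised 0 of the 37 in wild type, led by Nek2, a centrosome kinase (-2.56 ± 0.39, edgeR adjusted p = 1.05e-04), and lowered 2 and raised 0 in the mutant, Ccnf (-1.23 ± 0.23, adjusted p = 7.71e-04) and Cks1b (-1.13 ± 0.33, adjusted p = 0.0270). With restriction 7.30% of all genes fell and 6.30% rose in wild type, and 6.33% fell and 4.91% rose in the mutant. The mutant count of 2, or 5.41%, was thus near the share over all genes. The interaction was called for 5 of them, all higher (0.906% of all genes): Iqgap3, Hmmr, Racgap1, Nek2 and Ckap2. In restricted wild type Iqgap3 had 0 counts, and Hmmr and Ckap2 had 2 counts each, so these calls rest on a group at or under the floor of 3 counts. Whether the 5 calls hold without single libraries was not tested. At 104 weeks 11 fell and 1 rose. With free feeding at 16 weeks 3 rose (8.11%, where 5.10% of all genes rose) and 1 fell (2.70%, where 4.85% of all genes fell) in the mutant. The gene that fell was Nek2 (-1.16 ± 0.36, edgeR adjusted p = 0.0392), at 1.26, 1.20, 1.78 and 2.54 CPM in mutants, against 3.61, 4.06, 4.19 and 3.29 CPM in wild type.

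Inhibitors and the E2F family followed other patterns. Cdkn1a (p21), the p53-induced CDK inhibitor, had 27.2, 47.9, 15.1 and 11.6 CPM in restricted mutants and 54.3, 16.1, 24.2 and 14.6 CPM in freely fed mutants, against 5.60, 10.0, 11.2 and 11.2 CPM in restricted wild type and 8.06, 20.5, 8.98 and 15.6 CPM in freely fed wild type. It was called in no comparison, with log2 fold changes of 1.43 ± 0.56 for mutant over wild type under restriction (edgeR adjusted p = 0.0806) and 1.04 ± 0.55 with free feeding (adjusted p = 0.257). Of 14 p53 arrest genes tested, 7 rose and 0 fell under restriction and 6 rose and 0 fell with free feeding. Over all genes, 9.58% rose and 8.70% fell under restriction, and 5.10% rose and 4.85% fell with free feeding. Gtse1 is counted in this list too. Apart from it, the leading p53 genes were Phlda3 (2.47 under restriction, edgeR adjusted p = 0.00539, and 3.42 with free feeding, adjusted p = 1.78e-04) and Ccng1 (0.83, adjusted p = 0.00833, and 1.16, adjusted p = 6.58e-04). Phlda3 had 22.8, 5.47, 4.99 and 4.51 CPM in freely fed mutants, against 1.22, 0.665, 0.838 and 0.754 CPM in freely fed wild type, with mutant replicate 1 far above the rest. With restriction 1 of 5 CDK inhibitors rose in each genotype, a different gene in each, where 4.91% of all genes rose in the mutant and 6.30% in wild type. In the mutant it was Cdkn1c (p57), at 3.97, 3.65, 3.85 and 4.21 CPM with restriction, against 2.27, 1.25, 1.78 and 0.826 CPM with free feeding (1.35 ± 0.34, edgeR adjusted p = 0.00854). In wild type it was Cdkn2c (p18), at 5.22, 2.79, 3.08 and 3.29 CPM, against 1.94, 0.931, 1.32 and 1.03 CPM (1.45 ± 0.33, edgeR adjusted p = 0.00397). The interaction was called for 0 of the 5 inhibitors, with estimates between -0.89 and 0.72, so these calls do not show a difference between the genotypes.

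E2f7 and E2f8 code for repressors of the E2F family. E2f7 was the 1 gene of 21 tested other cyclins, CDKs, E2F and RB genes that rose at 104 weeks, at 15.5, 17.9, 8.41 and 17.0 CPM, against 0.611, 2.20, 1.44 and 1.10 CPM at 16 weeks (log2 fold change 3.46 ± 0.45, edgeR adjusted p = 1.54e-05). In that comparison 5.13% of all genes rose. The 4 libraries of 104 weeks lay above all 20 others, whose highest value was 2.61 CPM. E2f8 had 1.87, 2.68, 1.23 and 0.713 CPM in restricted mutants, against 6.97, 44.3, 4.82 and 5.96 CPM in restricted wild type (-3.22 ± 0.64, edgeR adjusted p = 0.00135), and against 9.38, 6.15, 6.70 and 6.86 CPM in freely fed mutants (-2.14 ± 0.64, adjusted p = 0.0330). In restricted wild type, replicate 2 was far above the other 3. Of the other genes in that list, Cdk4 rose in freely fed mutants relative to freely fed wild type (0.49 on the log2 scale, edgeR adjusted p = 0.0219), E2f3 rose in restricted mutants relative to restricted wild type (1.33, adjusted p = 8.54e-04), E2f4 rose with restriction in wild type (0.55, adjusted p = 0.00800) and Lin9, a DREAM subunit, fell with restriction in the mutant (-1.51, adjusted p = 0.0141).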

How the data were processed

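PolyA RNA of male mouse liver was sequenced in 24 libraries, 4 in each of 6 groups taken from the sample titles. The authors deposited raw counts per gene; per the submitters' processing notes, Trimmomatic 0.39, STAR 2.7.0f, featureCounts of Subread 1.6.4 and GRCm38.p6 were used. Annotation release, strand setting and multi-mapping rule: not given in the sources used here. In total, all 22429 IDs matched GENCODE M21, and 3497 genes had no count. Library totals ran from 13.3 to 20.6 M counts. In R 4.3.3, edgeR 4.0.16 kept 12690 genes (filterByExpr), scaled by TMM and fitted all 6 groups in one quasi-likelihood model with 18 residual degrees of freedom and a common dispersion of 0.0493; p-values were Benjamini-Hochberg adjusted over all genes tested, at a threshold of 0.05. The interaction of diet and genotype used the 4 groups of 16 weeks as a contrast of that model. CPM values and set levels (with a pseudocount of 0.1 CPM) only describe. The pipeline was tested on simulated data.

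The 43 members and all gene lists were chosen with earlier results of these data known. Per comparison, up to 8 called members with the lowest adjusted p were named, plus Mki67, Pcna, Ccnd1, Cdk1 and Mcm2; Ercc1, Cdkn1a and up to 3 called genes of each other list could be named too. Other genes given with values, among them Kif20a, Rrm2, Tyms, Hmgb2, Foxm1, Aurkb, Bub1, Gse1 and LTO1, were chosen after their values were seen. No 2 libraries of a group agreed within sampling noise (36 pairs compared, chi-square divided by degrees of freedom at least 8.32). Alternatives were RLE scaling, no filter on low counts, DESeq2 1.42.0, a fit of only the groups compared, a block on replicate number, and leaving out each library.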

Additional observations from a re-analysis of the deposited data

Results flagged for a closer look

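Of 150 sets of 4 values (a named member, or a set level, in a group), 8 held a library far from the other 3, and chance alone gives about 1 in 20. In freely fed mutants of 16 weeks, Pcna was at 18.9 CPM in replicate 1 and at 29.6 to 30.5 CPM in the others. In restricted wild type, Ccnb2 was at 0.501 CPM in replicate 2, against 0.0634 to 0.128 CPM in the others, and Cdc6 was at 0.128 CPM in replicate 3 and at 0 in the others. At 104 weeks, Mcm7 was at 16.3 CPM in replicate 2, against 12.6 to 13.0 CPM, and Ccnb1 was at 0.135 CPM in replicate 3 and at 0 in the others. In freely fed wild type of 16 weeks, replicate 1 had Mcm3 at 7.84 CPM, against 3.02 to 3.59 CPM, and Cdt1 at 2.56 CPM, against 1.30 to 1.33 CPM, and replicate 2 had Ccnb2 at 1.40 CPM, against 0.480 to 0.611 CPM. The Ccnb1 and Cdc6 values rest on 2 counts each.

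The effect of restriction differed between mutant and wild type for Gins2 (interaction of 3.70 on the log2 scale) and Cdc20 (3.29), as tested in the report.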

How the results depend on the processing

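No member call changed direction under any alternative run. With RLE scaling and with DESeq2 all 63 member calls held, with no filter on low counts 55 of 63, and with only the groups compared 39, while 9 lost significance and 15 had too few counts to pass the filter of that fit. Over all fits that leave out 1 library 405 held and 115 lost significance. Freely fed mutant over wild type was the least stable comparison: 1 member, a replication gene, was called with no filter and again with a replicate block, 5 members with DESeq2, and with only the groups compared 1 replication member beside 2202 genes. With only the groups compared, restricted mutant over restricted wild type gave 877 genes, 10 members and 7 mitotic members, wild-type restriction gave 986, 9 and 6, mutant age gave 568 genes and 1 member, and the interaction gave 126 genes and 2 mitotic members. DESeq2 gave 201 genes for mutant age, and 388 genes, 8 members and 6 mitotic members for the interaction. The cause of these moves was not tested. Leaving out 1 library gave 0 to 7 members and 0 to 6 replication members for freely fed mutant over wild type, 29 to 76 genes for mutant age, and 109 to 225 genes, 1 to 3 members and 0 to 2 mitotic members for the interaction. It gave 792 to 1533 genes, 8 to 12 members, 1 to 2 replication and 3 to 5 mitotic members at 104 weeks, and 1051 to 2009 genes, 12 to 20 members and 8 to 13 mitotic members for wild-type restriction. For mutant restriction it gave 5 to 7 replication members and 0 mitotic ones, and for restricted mutant over restricted wild type 10 to 14 mitotic members. Deviations of same-numbered libraries from their group means had a median r of 0.02 (-0.24 to 0.32 over 60 pairs, 12 above 0.1). Differently numbered libraries had a median r of -0.01 (-0.34 to 0.43 over 180 pairs, 29 above 0.1). In all other groups at once, 0 of 24 libraries were closest to their own number, a condition too strict to exclude pairing. Whether the numbers pair samples was therefore not settled. The replicate block gave 2 mitotic members for the interaction and lost 5 of 63 member calls in all. Depth limits the scarce members, among them Ccnb1, Aurkb, Bub1, Cdc6 and Gins2.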
